A study of Mus musculus with 10 samples.

Results

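The imprinted growth genes are 10 genes, H19, Igf2, Igf2r, Dlk1, Plagl1, Mest, Peg3, Grb10, Cdkn1c and Ndn, followed here in the skin of Tsk2 mice at 4 months and 1 month of age. They were taken by symbol from the platform annotation. They have 17 of the 41174 probes on the array, and 13 of these probes, covering all 10 genes, had enough values to be compared between ages. The comparison as a whole covered 13501 genes and 21103 probes.

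At an imprinted gene, the copy inherited from one parent is silenced by DNA methylation or by an antisense RNA, so that a cell uses mainly the other copy. Many of these genes act as a growth network: those used from the father's copy, such as Igf2, Dlk1, Mest and Peg3, tend to promote growth before birth, and those used from the mother's copy, such as H19, Igf2r and Cdkn1c, tend to restrain it. In several mouse organs, members of this network are switched down together in the weeks after birth as growth of the body slows. Skin keeps growing and renewing through its hair cycles, and it also holds fat and a thin sheet of skeletal muscle. The arrays measured total RNA and do not separate the parental copies.

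Skin came from mice with Tsk2, a tight-skin mutation studied as a scleroderma model, and the labels call every sample Tsk2 transgenic. There were 4 skin samples at 4 months and 4 at 1 month, on 5 arrays per age, since at each age 1 sample was hybridised in duplicate. The 4-month samples carry 3 ID numbers (samples 2 and 3 share one) and the 1-month samples carry 2 (samples 1 and 2 share one, and samples 3 and 4 the other), and none occurs at both ages. Age therefore cannot be told apart from other differences between these numbers, and wild-type skin was not analysed here. The labels do not say whether each sample is a separate animal. The p-values then reflect only how far these samples scatter, and part of that scatter may be technical.

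All levels are log2 ratios of skin (Cy3) over a reference RNA from a cell line labelled UMR (Cy5). Ratios of different genes were not ranked against each other, because each also depends on how much of that RNA the reference holds. The direction is likely rather than stated: with the deposited sign turned, probes of epidermal keratinocyte genes had array medians of 3.97 to 6.70 and those of skeletal muscle genes 4.11 to 6.61, while those of cell division genes lay at -3.16 to -0.41. If the ratio ran the other way, every difference below would change sign and keep its size and test. The deposited table holds no counts or intensities, so the number of arrays limits the precision; exact zeros, 26.04% to 47.35% of an array's probes, were read as not measured. A further 27.2% to 37.1% of the measured values of an array were shared by 100 or more probes, and 4 of the 130 values of the 13 member probes were of this kind. The 2 arrays of a sample correlated at 0.915 in 4-month sample 2 and 0.907 in 1-month sample 1 across probes, which are not independent replicates. In the 25 member probe pairs measured on both arrays, the arrays differed by a median of 0.31 and at most 0.73.

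None of the 10 genes changed between 4 months and 1 month at an adjusted p of 0.05 (limma with the ID number as a random block, Benjamini-Hochberg adjustment over all genes, n = 4 samples per age), against 7.25% of all genes (4.19% rose and 3.06% fell). At an unadjusted p under 0.05 there was 1 member, Plagl1, against 24.29% of all genes. The ages overlapped for all 10 members, whereas they did not overlap for 21.1% of all genes. The estimated differences were above 0 for 6 members and below 0 for 4, with a median of 0.11, against 0.03 over all genes. Their median size was 0.24, against 0.39 over all genes, while their median standard error was 0.46, against 0.31. A change of 1 log2 unit lay inside the 95% interval of 7 members, which leaves a change of that size possible for them, and outside it for Igf2r, Grb10 and Ndn. These intervals are from the main fit only. The upper bound for Igf2r was 0.95, and without 1-month sample 2 its difference was 0.43 ± 0.29 (SE).

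**Figure D1:**
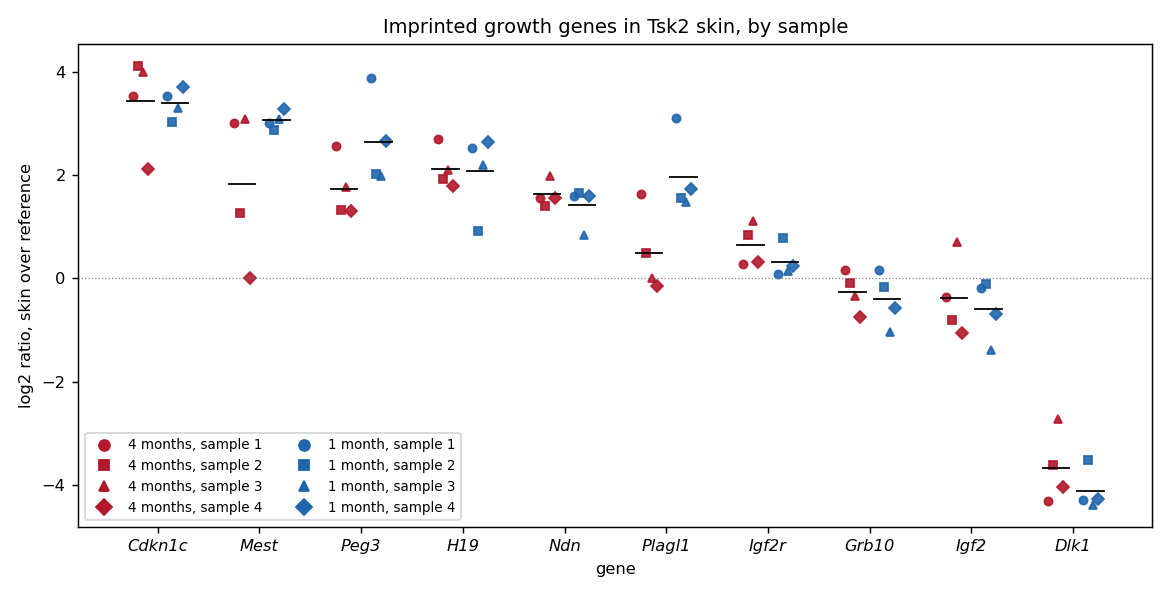
Levels of the 10 imprinted growth genes in each skin sample, as log2 ratio of skin over reference on the vertical axis; red marks are 4-month samples, blue marks 1-month samples, each shape is 1 sample and bars are means. The ages overlap for every gene, and the 4-month samples of Mest spread from 0.002 to 3.08 while its 1-month samples lie between 2.88 and 3.29.

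The H19 and Igf2 genes lie side by side and share enhancers, with H19 used from the mother's copy and Igf2 from the father's. H19 is a noncoding RNA that is also the precursor of the miR-675 pair, and Igf2, which encodes the insulin-like growth factor, hosts the miR-483 pair in an intron. Their mature sequences, with the seed (bases 2 to 8, which pair with targets) in capitals, are given because the array follows the host RNA and not these products. Sequences and positions are RefSeq's on GRCm38.p6, all on the minus strand of chromosome 7, at chr7:142577112-142577133 and chr7:142577078-142577099 for miR-675 and at chr7:142654968-142654989 and chr7:142654932-142654952 for miR-483. No seed is shared among them.
mmu-miR-675-5p: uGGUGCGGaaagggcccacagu
mmu-miR-675-3p: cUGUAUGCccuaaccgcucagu
mmu-miR-483-5p: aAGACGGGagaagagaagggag
mmu-miR-483-3p: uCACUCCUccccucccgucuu

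H19 was above the reference in all 8 samples. Its log2 ratios were 2.70, 1.93, 2.09 and 1.78 in 4-month samples 1 to 4, against 2.52, 0.93, 2.21 and 2.65 in 1-month samples 1 to 4. The lowest value was 1-month sample 2, and the remaining 1-month samples lay within the range of the 4-month ones. The means were 2.13 ± 0.40 at 4 months and 2.08 ± 0.79 at 1 month (SD, n = 4 each). The difference was 0.07 ± 0.46 (SE; 95% interval -0.97 to 1.10; limma adjusted p = 0.95), which leaves room for a change of about 1 log2 unit either way, and it turned to -0.32 without 1-month sample 2 and to -0.15 without 4-month sample 1.

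Igf2 lay on both sides of the reference. Its ratios were -0.36, -0.81, 0.71 and -1.06 at 4 months, against -0.19, -0.11, -1.39 and -0.69 at 1 month. Only 4-month sample 3 was above the reference, and the other 4-month samples lay inside the range of the 1-month ones. The difference was 0.17 ± 0.49 (95% interval -0.93 to 1.27; limma adjusted p = 0.88), which turned to -0.15 when 4-month sample 3 was left out and to -0.05 when 1-month sample 3 was. The 2 Igf2 probes, both made for the same transcript, gave 0.40 and -0.05. Across the 8 samples H19 and Igf2 had a Pearson correlation of -0.08, so the neighbours did not vary together in these samples.

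Igf2r encodes the receptor that clears IGF2 by taking it to the lysosome and also sorts lysosomal enzymes by their mannose 6-phosphate tag. It was above the reference in all 8 samples, at 0.28, 0.85, 1.12 and 0.33 at 4 months, against 0.08, 0.79, 0.14 and 0.24 at 1 month. The high values were 4-month samples 2 and 3 and 1-month sample 2. The difference was 0.28 ± 0.30 (95% interval -0.39 to 0.95; limma adjusted p = 0.63), and it was 0.10 without 1-month sample 1. Without 1-month sample 2, the 4-month samples (0.28 to 1.12) lay above all the remaining 1-month samples (0.08 to 0.24), with a two-sided exact permutation p of 0.11; 1 of the 10 members separated in this way, against 31.7% of all genes.

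Dlk1 encodes a membrane protein related to the Notch ligands that holds back the maturation of preadipocytes and is also found in developing and regenerating muscle. It was below the reference in all 8 samples, at -4.30, -3.61, -2.73 and -4.04 at 4 months, against -4.29, -3.52, -4.39 and -4.27 at 1 month. The 3 highest samples were 4-month sample 3, 1-month sample 2 and 4-month sample 2, the same ones as for Igf2r. The means were -3.67 ± 0.69 at 4 months and -4.12 ± 0.40 at 1 month (SD, n = 4 each), and the difference was 0.38 ± 0.40 (95% interval -0.53 to 1.28; limma adjusted p = 0.63). Leaving out 4-month sample 3 gave 0.13, and leaving out 1-month sample 1 gave 0.18. Both Dlk1 probes gave a difference above 0, at 0.53 and 0.24.

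Igf2r and Dlk1 had the highest correlation of the 45 pairs of members, at 0.96 over the 8 samples and 0.96 after the mean of each age was subtracted. Both were high in the samples with high skeletal muscle RNA. The mean of 25 skeletal muscle genes, all measured in every sample, was 4.99, 5.69, 6.66 and 5.06 at 4 months, against 4.42, 5.41, 4.03 and 4.17 at 1 month. The 3 samples highest in muscle genes were the 3 highest for both members, and the correlation with the muscle mean was 0.94 for Dlk1 and 0.93 for Igf2r (n = 8, given without a test). With the mean of 9 epidermal keratinocyte genes it was 0.79 for Dlk1 and 0.73 for Igf2r, so the keratinocyte genes varied with them as well. That mean was 4.17, 4.94, 5.72 and 5.22 at 4 months, against 4.68, 5.84, 4.71 and 4.86 at 1 month, and 4-month sample 3 and 1-month sample 2 were the highest of their age for both gene lists. Of those 25 muscle genes 5 rose and 0 fell, against 4.19% and 3.06% of all genes, with a median difference of 0.84. Fewer cells of a type and less RNA per cell cannot be told apart in whole skin. With the muscle mean as a covariate, the differences of Dlk1 and Igf2r were -0.45 ± 0.25 (limma adjusted p = 0.35) and -0.23 ± 0.26 (adjusted p = 0.65), and those of Igf2 and Ndn were -0.62 and -0.10. The covariate moved these 4 differences below 0. It was the only alternative to do so for Dlk1 and Igf2r, whereas Igf2 and Ndn also fell below 0 in other alternatives. The muscle mean was itself higher at 4 months by 1.09, so its part cannot be fully told apart from age. Of the 22 alternatives, 21 gave a difference above 0 for Dlk1 and for Igf2r, 20 for Ndn and 18 for Igf2.

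**Figure D2:**
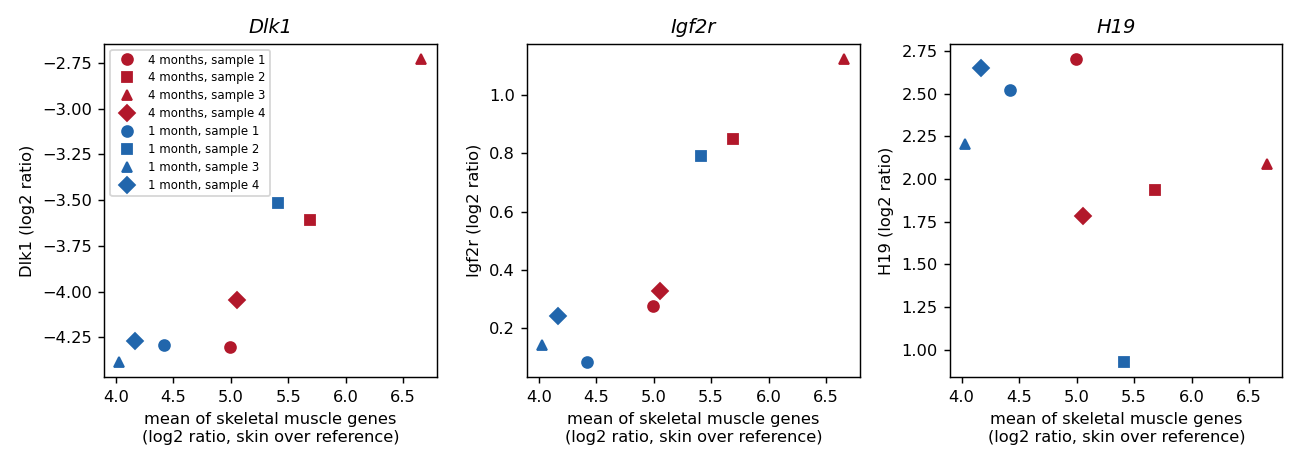
Log2 ratio of Dlk1, Igf2r and H19 on the vertical axes against the mean log2 ratio of 25 skeletal muscle genes on the horizontal axis, with 1 point per skin sample (red 4 months, blue 1 month). For Dlk1 and Igf2r the 3 samples with the highest muscle mean, of 5.41 to 6.66, are also the 3 highest, whereas H19 is lowest in 1 of them.

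Plagl1 encodes a zinc finger transcription factor, also called Zac1, that controls other genes of the imprinted network, and it had the largest difference of the 10 members. Its ratios were 1.63, 0.50, 0.01 and -0.15 at 4 months, against 3.11, 1.56, 1.48 and 1.72 at 1 month. The 4-month samples were lower apart from sample 1, which lay between the 1-month values. The means were 0.50 ± 0.80 at 4 months and 1.97 ± 0.77 at 1 month (SD, n = 4 each). The difference was -1.44 ± 0.54 (95% interval -2.65 to -0.22; limma p = 0.025, adjusted p = 0.14; two-sided exact permutation p = 0.086, where 0.029 is the smallest that 4 against 4 allow), so it did not pass the test. By ID number, the means were 1.63, 0.26 and -0.15 at 4 months, against 2.33 and 1.60 at 1 month.

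Without 4-month sample 1, the Plagl1 ranges no longer overlapped, at -0.15 to 0.50 at 4 months, against 1.48 to 3.11 at 1 month. Peg3 separated in the same way, at 1.30 to 1.76 at 4 months, against 1.99 to 3.88 at 1 month. These were 2 of the 10 members, against 25.0% of all genes without that sample. Without 1-month sample 1 instead, the Plagl1 difference was -1.03 (limma adjusted p = 0.32). The Plagl1 difference rests on 1 of its 2 probes, because the other was at exact 0 on 4 arrays and at a value shared by many probes on 5. A leukocyte mean of 7 genes measured in all samples was 0.34, 0.23, 0.98 and 0.58 at 4 months, against -0.91, -0.06, 0.07 and 0.03 at 1 month. It ran opposite to Plagl1, with correlations of -0.91 over the 8 samples and -0.80 within ages, though 0 of 9 measured leukocyte genes passed the age test. Other lists varied with Plagl1 as well. Among them, the correlation within ages was 0.87 for endothelium and pericyte genes and 0.80 for adipocyte genes (0.52 and 0.33 over the 8 samples). The part of these lists in the Plagl1 values was not tested.

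Peg3 encodes a large zinc finger protein tied to maternal behaviour and fat storage in mice. Its ratios were 2.57, 1.32, 1.76 and 1.30 at 4 months, against 3.88, 2.02, 1.99 and 2.66 at 1 month. Sample 1 was the highest of its age at both ages. The means were 1.74 ± 0.60 at 4 months and 2.64 ± 0.89 at 1 month (SD, n = 4 each), with a difference of -0.87 ± 0.55 (95% interval -2.10 to 0.36; limma adjusted p = 0.38). Without 1-month sample 1 it was -0.40 (adjusted p = 0.72). The value rests on 1 of its 3 probes, the other 2 being at exact 0 on 7 and 4 arrays.

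Plagl1 and Peg3 had a correlation of 0.92 over the 8 samples and 0.90 within ages. The value within ages leans on sample 1, the highest of its age for both genes at 4 months and at 1 month. Among 4-month samples 2 to 4 Plagl1 was 0.50, 0.01 and -0.15, against 1.32, 1.76 and 1.30 for Peg3. Among 1-month samples 2 to 4 Plagl1 was 1.56, 1.48 and 1.72, against 2.02, 1.99 and 2.66 for Peg3. The correlation without sample 1 was not computed. The stretch of 250 bases before the start of Peg3 (RefSeq, GRCm38.p6, chr7:6730420-6730669, minus strand) is shown because it holds the sequence GGGGCCCC, an arrangement that the Plagl1 protein is known to bind in the test tube. The motif is its own reverse complement, so both strands read the same, and it is in capitals; its first base lies 201 bases before the start. It occurred in 1 of the 14 windows of the 8 members that have one, and in 0.889% of all 32851 windows of this length. The match describes the letters of the window only, and binding was not measured.
Peg3: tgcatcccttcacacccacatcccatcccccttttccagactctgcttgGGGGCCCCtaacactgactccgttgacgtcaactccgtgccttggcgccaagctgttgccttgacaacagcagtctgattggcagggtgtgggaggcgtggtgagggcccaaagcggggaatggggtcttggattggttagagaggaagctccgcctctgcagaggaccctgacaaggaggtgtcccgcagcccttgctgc

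**Figure D3:**
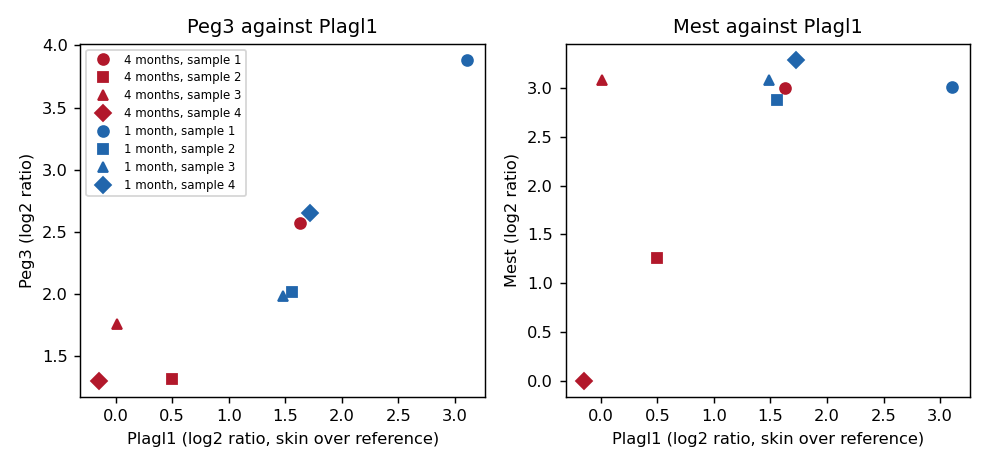
Log2 ratio of Peg3 (left) and Mest (right) on the vertical axes against that of Plagl1 on the horizontal axis, with 1 point per skin sample (red 4 months, blue 1 month). Sample 1 is the highest of its age for both Plagl1 and Peg3. The 1-month samples have the same order for both genes, whereas 4-month samples 2 to 4 do not. Mest is low in 4-month samples 2 and 4 only.

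Mest, also called Peg1, encodes an enzyme of the alpha/beta hydrolase family that rises in enlarging fat tissue of mice, and it hosts the miR-335 pair in an intron. The mature sequences are shown, with seeds in capitals, because here too the array follows only the host RNA. They lie on the plus strand at chr6:30741314-30741336 and chr6:30741354-30741375 (RefSeq, GRCm38.p6).
mmu-miR-335-5p: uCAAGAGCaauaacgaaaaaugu
mmu-miR-335-3p: uUUUUCAUuauugcuccugacc

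Mest ratios were 3.001, 1.26, 3.08 and 0.002 at 4 months, against 3.01, 2.88, 3.09 and 3.29 at 1 month. The 1-month samples lay close together, whereas 4-month samples 2 and 4 were lower than every other sample and samples 1 and 3 stood at the 1-month level. The SD was 1.48 at 4 months and 0.17 at 1 month (n = 4 each). The difference was -1.27 ± 0.71 (95% interval -2.86 to 0.31; limma adjusted p = 0.31) and -0.59 without 4-month sample 4. In 4-month sample 2, both arrays gave low values, at 1.41 and 1.10. Samples 2 and 3, which share an ID number, differed by more than the 2 arrays of sample 2 did.

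The CpG content of the windows before the start sites is given because methylation of CpG sites marks the silenced copy at many imprinted genes, though methylation was not measured here. Of the 14 windows of the 8 members, 1 of Grb10 had the most CpG sites, 40 in 250 bases, while its other window held 8. The first held at least as many as 98.9% of all windows, whose median was 6. The windows of Plagl1 and Mest, which had the largest differences between ages, held 19 and 7 to 14. That of Igf2r held 27 and those of Igf2 1 to 22, though these genes differed by only 0.28 and 0.17. The windows of Dlk1 and Peg3 held 8 each and that of Ndn 5. A link between CpG content and age was not tested. In the sequences below, each CG is in capitals. They are Plagl1 at chr10:13090582-13090831 and the Mest window at chr6:30737800-30738049, both on the plus strand of GRCm38.p6 from RefSeq.
Plagl1: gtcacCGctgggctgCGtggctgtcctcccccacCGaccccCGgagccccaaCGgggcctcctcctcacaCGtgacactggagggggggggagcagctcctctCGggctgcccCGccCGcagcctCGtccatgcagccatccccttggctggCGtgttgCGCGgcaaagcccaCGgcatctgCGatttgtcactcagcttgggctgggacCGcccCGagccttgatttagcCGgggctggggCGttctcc
Mest: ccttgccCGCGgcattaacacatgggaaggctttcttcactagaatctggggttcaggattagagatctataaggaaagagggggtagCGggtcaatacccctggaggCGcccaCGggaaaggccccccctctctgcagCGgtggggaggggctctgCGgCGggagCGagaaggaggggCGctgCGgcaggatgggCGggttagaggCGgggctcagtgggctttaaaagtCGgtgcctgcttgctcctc

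Grb10 encodes an adaptor protein that binds the insulin and IGF1 receptors and dampens their signal. Its ratios were 0.15, -0.09, -0.34 and -0.74 at 4 months, against 0.16, -0.17, -1.03 and -0.58 at 1 month. The ages covered much the same range. The difference was 0.15 ± 0.33 (95% interval -0.58 to 0.88; limma adjusted p = 0.84). The 2 probes used gave -0.16 and 0.45, opposite in sign, and a further probe had too few values.

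Cdkn1c encodes p57, an inhibitor of the cyclin-dependent kinases that drive the cell cycle. Its ratios were 3.53, 4.12, 3.99 and 2.11 at 4 months, against 3.54, 3.03, 3.30 and 3.71 at 1 month. The 4-month samples included both the highest and the lowest value, and sample 4, low for Mest as well, was the lowest. The difference was -0.04 ± 0.45 (95% interval -1.05 to 0.97; limma adjusted p = 0.97), and it was 0.47 without 4-month sample 4 (adjusted p = 0.26). Over the same samples 15 of 19 cell division genes fell and 0 rose, against 3.06% and 4.19% of all genes. Their median difference was -1.64.

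Ndn encodes necdin, a member of the MAGE family that restrains proliferation of neurons and preadipocytes. Its ratios were 1.56, 1.41, 1.99 and 1.56 at 4 months, against 1.60, 1.65, 0.83 and 1.59 at 1 month. Only 1-month sample 3 stood apart, below the others. The value of 4-month sample 2 came from 1 of its 2 arrays, since the other was at exact 0. The difference was 0.20 ± 0.29 (95% interval -0.45 to 0.86; limma adjusted p = 0.73), and it was 0.015 without 1-month sample 3. With zeros kept as values the Ndn difference was 0.047. Ndn correlated with Igf2 at 0.85 over the 8 samples, and both were low in 1-month sample 3.

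**Figure D4:**
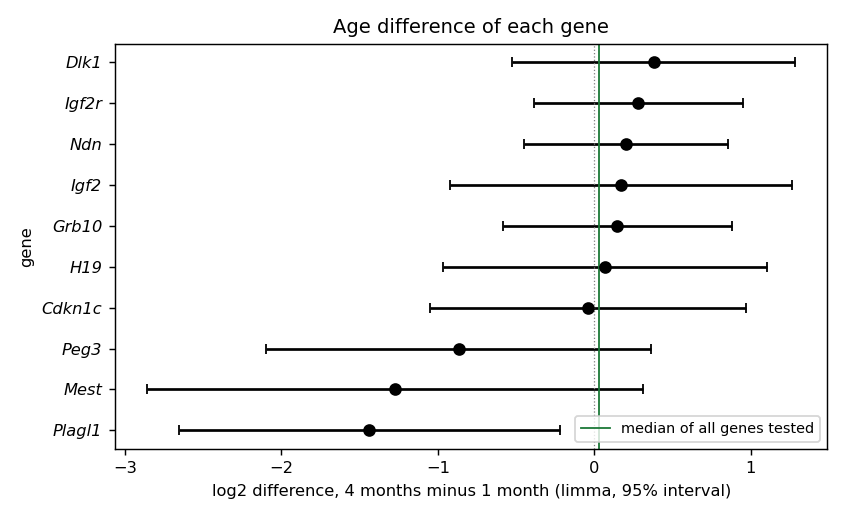
Difference between ages for each gene, as 4 months minus 1 month in log2 units on the horizontal axis, with points for the limma estimate and bars for the 95% interval. Only the interval of Plagl1 leaves out 0, at -2.65 to -0.22 before adjustment, and the green line marks the median of all genes tested, 0.03.

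At the level of single probes, 0 of the 13 member probes passed the limma test, against 5.85% of all 21103 probes. The lowest adjusted p was 0.14, for the Plagl1 probe.

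Of 63 other imprinted genes listed, 36 were measured, with a median difference of 0.11. Among these 0 rose and 1 fell, against 4.19% and 3.06% of all genes. The gene that fell was Mirg, a noncoding RNA of the Dlk1 cluster used from the mother's copy. Its ratios were 0.43, 0.49 and 0.78 in 4-month samples 1, 3 and 4, against 3.01, 2.55, 2.01 and 1.47 at 1 month, with no value in 4-month sample 2, and the difference was -1.69 (limma adjusted p = 0.033). The call held in 9 of the 17 alternatives that could fit Mirg. It was lost when 1-month sample 1 or sample 2 was left out (limma adjusted p up to 0.10). Among other settings, it was also lost with zeros kept (0.051), with first arrays only (0.089) and with the muscle covariate (0.13). No fit was possible without 4-month sample 1, 3 or 4. Of the Mirg array values 3 were shared by many probes, and with such values read as not measured Mirg could not be fitted. Meg3, the noncoding RNA next to Dlk1, was named after its values were seen. It had ratios of 3.40, 3.97, 3.39 and 2.62 at 4 months, against 4.10, 4.47, 3.73 and 3.79 at 1 month, with a difference of -0.72 that did not pass (adjusted p = 0.23). The largest differences of the list that did not pass were 2.11 for the amino acid transporter Slc38a4 (adjusted p = 0.057) and 2.04 for Snurf (0.17), with 1.73 (0.077) for Snrpn, which shares a transcript with Snurf and encodes a splicing protein.

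The IGF and insulin pathway was close to even, with a median of 0.06. Of 28 measured genes 1 rose and 0 fell, against 4.19% and 3.06% of all genes. Akt2, a kinase that carries the insulin signal, rose by 1.09, at 0.79, 1.11, 0.90 and 0.61 at 4 months, against -0.24, -0.71, -0.09 and 0.01 at 1 month (limma adjusted p = 0.033). The ages did not overlap, but the call was lost in 5 of the 8 fits that left out a sample. These were the fits without 4-month samples 1, 2 or 3 or 1-month samples 1 or 2 (limma adjusted p up to 0.099). Of all 22 alternatives 13 kept the Akt2 call. It was also lost with the muscle covariate (adjusted p = 0.081) and with the title suffix as a covariate (0.065), among others. The adaptor Grb14, a relative of Grb10, differed by 1.48 (adjusted p = 0.080), the IGFBP protease Pappa by -1.35 (0.13) and Igfbp6, which prefers IGF2 as its ligand, by 1.14 (0.11), none past the test. Igf1 and its receptor Igf1r differed by -0.34 and -0.06.

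Among regulators of Igf2, of imprints and of fetal growth, 4 of 24 measured genes fell and 0 rose, against 3.06% and 4.19% of all genes. The median difference of the 24 genes was -0.62. The mean of this list was -1.01, -0.81, -0.82 and -0.61 at 4 months, against -0.27, -0.08, -0.20 and -0.26 at 1 month, and the ages did not overlap. Mycn, a transcription factor of growing progenitor cells, fell by 3.89 ± 0.42 (limma adjusted p = 0.0045). Its ratios were 1.36, 0.40, -0.39 and 0.44 at 4 months, against 4.86, 4.26, 4.62 and 3.90 at 1 month. The call held in each of the 8 fits that left out a sample, but not with means per ID number (-3.81, adjusted p = 0.064), a setting in which 0 genes passed. With zeros kept as values the Mycn difference was -1.97 and still passed (limma adjusted p = 0.019). Of the Mycn array values 3 were shared by many probes. With such values read as not measured, too few were left to fit Mycn, so the fall could not be checked without them.

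Ezh2, the methyltransferase of Polycomb complex PRC2, fell by 1.36, at -2.65, -2.78, -2.01 and -2.14 at 4 months, against -1.19, -0.57, -1.24 and -1.14 at 1 month (limma adjusted p = 0.030). Uhrf1, which brings the maintenance methyltransferase Dnmt1 to newly copied DNA, fell by 1.88, at -3.74, -3.37, -2.90 and -1.87 at 4 months, against -0.74, -0.45, -1.67 and -1.39 at 1 month (adjusted p = 0.040). Smchd1, a chromatin protein needed at some imprinted clusters, fell by 0.86 (adjusted p = 0.0495), with 9 of its array values shared by many probes. The Ezh2 call was lost without 4-month samples 1 or 2 or 1-month samples 1 or 2, the Uhrf1 call without these or 4-month sample 3, and the Smchd1 call without any sample other than 4-month sample 4 (adjusted p up to 0.10, 0.13 and 0.20). The cell division mean moved with this list, at -3.15 to -1.97 at 4 months, against -1.16 to -0.61 at 1 month, and its part in these calls cannot be told apart from age. With it as a covariate, a fit in which 0 genes passed, the difference of Ezh2 was -0.23, that of Uhrf1 0.99, that of Smchd1 -0.52 and that of Mycn -4.95 (adjusted p of 0.34 to 0.96). Dnmt1 itself differed by -0.71 (adjusted p = 0.40), and the insulator protein Ctcf, which keeps Igf2 and H19 apart, by -0.23 (0.54).

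**Figure D5:**
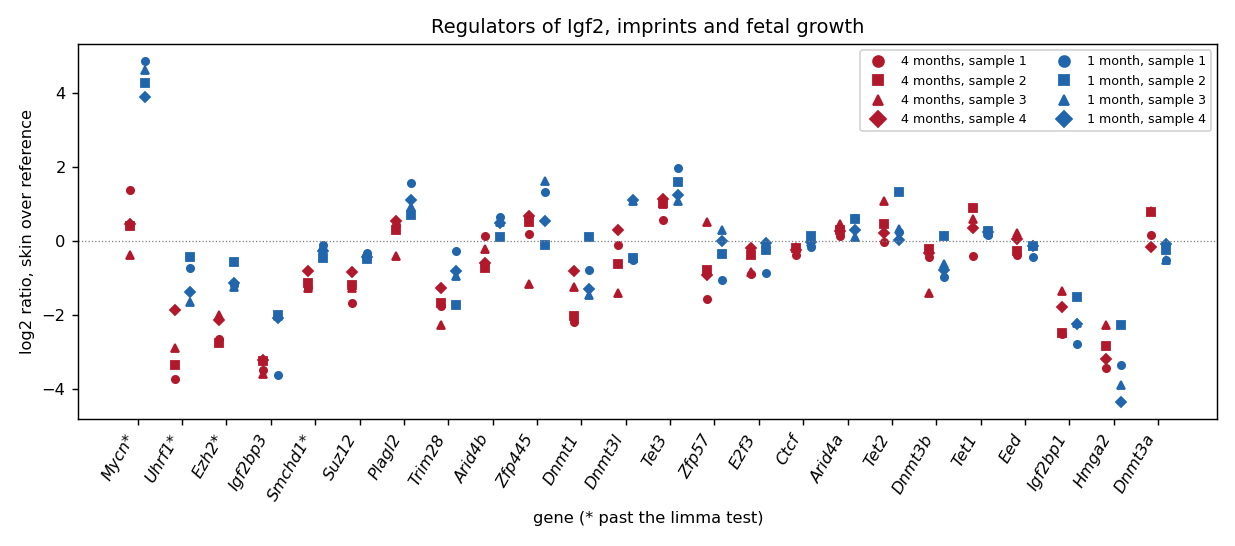
Log2 ratio of skin over reference for 24 regulators of Igf2, of imprints and of fetal growth, with 1 mark per skin sample (red 4 months, blue 1 month) and an asterisk on the 4 genes past the limma test. Mycn has the widest gap, with 4-month samples at -0.39 to 1.36 and 1-month samples at 3.90 to 4.86.

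The mannose 6-phosphate route, which Igf2r shares with the smaller receptor M6pr, had a median difference of 0.22. Of its 16 measured genes 3 rose and 0 fell, against 4.19% and 3.06% of all genes. The genes that rose are lysosomal proteins. Psap, the saposin precursor, rose by 1.33, at 1.86, 1.79, 1.11 and 1.94 at 4 months, against 0.69, 0.16, 0.39 and 0.27 at 1 month (limma adjusted p = 0.026). The glycogen-degrading enzyme Gaa rose by 1.31 (adjusted p = 0.033) and the ganglioside-degrading Hexa by 0.96 (adjusted p = 0.049). M6pr differed by -0.02. The leukocyte mean given above was also higher at 4 months, without overlap, and its part in these rises was not tested. With the muscle covariate Psap passed (adjusted p = 0.038) and Gaa (0.14) and Hexa (0.23) did not. The Psap call was lost without 4-month samples 1 or 2 or 1-month samples 1 or 2, the Gaa call without these or 4-month sample 3, and the Hexa call without these 5 or 1-month sample 3 (adjusted p up to 0.082, 0.13 and 0.21).

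Of 16 measured genes of fat cell formation, the process that Dlk1 holds back, 0 rose and 0 fell, against 4.19% and 3.06% of all genes. Their median difference was 0.08. The largest differences were 1.35 for Cebpd (limma adjusted p = 0.071), an early factor of fat cell formation, -1.09 for Sfrp1 (0.080), a secreted Wnt antagonist, and -1.004 for Wnt10b (0.075), a Wnt ligand that blocks the process. The mean of 8 adipocyte genes overlapped between the ages, at 3.04 to 4.72 at 4 months, against 3.38 to 4.26 at 1 month. Hair matrix genes (3 of 8 fell) and melanocyte genes (3 of 4 fell), against 3.06% of all genes, had means that did not overlap between the ages. The part of these lists in the members' values was not tested.

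The genes most like each member were looked for among 12397 genes measured in all 8 samples, by Pearson correlation. Picking the highest of so many makes a high value likely with only 8 samples that share a reference and ID numbers, so these are descriptions. For Dlk1 the nearest was Casq1, the calcium store protein of fast skeletal muscle, at 0.99, followed by Clic3 at 0.99. Igf2r was nearest to Rnf7 at 0.99 and H4f16 at 0.98. Plagl1 was nearest to the zinc finger genes Zfp87 at 0.98 and Zfp936 at 0.98, and Peg3 to the chromatin remodeller Chd3 at 0.97 and Pikfyve at 0.95. Mest was nearest to Magea6 at 0.97 and Lyplal1 at 0.96. H19 was nearest to Ano10 at 0.96 and Atg7 at 0.94, and Igf2 to Serf2 at 0.95 and Cish at 0.93. The remaining members, Grb10, Cdkn1c and Ndn, had as their nearest genes Hps5 (0.96) and Abhd14b (0.95) for Grb10, Thnsl1 (0.95) and Mtss2 (0.945) for Cdkn1c, and Dcun1d4 (0.97) and Glt1d1 (0.95) for Ndn. None of these genes passed the age test.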

How the data were processed

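Total RNA of Tsk2 mouse skin was labelled from 200 ng per sample and hybridised against a UMR reference on 2-colour Agilent arrays, per the labels' protocols. The authors deposited 1 value per probe and array, read here as a log2 ratio of the dyes; its base and direction were inferred from the values. Background correction and the normalization step were not given in the sources used here. Signs were turned so that skin above reference is positive. Exact zeros were treated as not measured, repeat arrays were averaged, and the probes of a gene were averaged with a probe and sample fit. Only probes with 1 gene symbol were used, and probes and genes needed values in at least 3 samples of each age.

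Ages were compared with limma 3.58.1 in R 4.3.3 (lmFit, eBayes), with the ID number as a random block (statmod 1.5.0, consensus correlation 0.313) and Benjamini-Hochberg adjustment over 13501 genes at 0.05. The fit was tested on simulated data. Single genes also had two-sided exact permutation tests over samples. Alternatives changed the block, zeros, normalization, probe rule, repeat arrays, filters and covariates, or left out samples. The members and lists were chosen with earlier results of these data known. All 10 members are described; from each pathway list, the genes past the test and the 3 of largest difference are named, and other named genes were chosen after their values were seen. Likeness names the 2 genes of highest correlation per member. Promoter windows and miRNAs came from RefSeq tables (GRCm38.p6); 8 members had a window.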

Additional observations from a re-analysis of the deposited data

Results flagged for a closer look

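In 3 of the 20 groups formed by a member and an age, the sample at one end lay far from the other 3 of its age, by a gap of more than 0.829 of the whole range. Chance gives about 1 in 20 such groups. Dlk1 was -3.52 in 1-month sample 2, the highest of its age, with a gap of 0.867 of the range, and that sample was also the highest of its age in skeletal muscle genes. Plagl1 was 3.11 in 1-month sample 1, the highest of its age, with a gap of 0.852 of the range. Both arrays of that sample were high, at 2.94 and 3.27. Ndn was 0.83 in 1-month sample 3, the lowest of its age, with a gap of 0.928 of the range. All 3 samples were at 1 month, and causes were not tested.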

How the results depend on the processing

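In each of 22 alternatives, 0 of the 10 members passed the test, and Plagl1 (-3.28 to -0.72, lowest adjusted p 0.061), Mest (-4.17 to -0.59, lowest 0.15) and Peg3 (-1.97 to -0.40, lowest 0.10) stayed below 0. Other members turned sign. Without the block Cdkn1c was 0.043. With quantile normalization H19 was -0.21 and Ndn -0.042. With 1 probe per gene Igf2 was -0.056 and Grb10 -0.16. With the title suffix as a covariate H19 was -0.028. With the skeletal muscle covariate Igf2 was -0.62, Igf2r -0.23, Dlk1 -0.45 and Ndn -0.10. With the cell division covariate H19 was -1.57 and Grb10 -0.46, and Cdkn1c, without a change of sign, was -2.06 (-0.53 with quantile normalization). Uhrf1, which is not a member, also turned sign with that covariate, to 0.99. Without 1-month sample 2 and 4-month sample 3 and without a block, an alternative added after seeing the data, H19 was -0.32. Leaving out 1 sample gave ranges of -0.32 to 0.40 for H19, -0.15 to 0.43 for Igf2, -0.051 to 0.33 for Grb10, -0.21 to 0.47 for Cdkn1c, 0.10 to 0.43 for Igf2r, 0.13 to 0.60 for Dlk1 and 0.015 to 0.28 for Ndn, and 0 to 2 members whose ages did not overlap. No paired analysis was possible because samples were numbered in the order of the arrays and no ID number occurs at both ages.

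Over all genes, 979 passed. The count was 2022 without the block, 0 with means per ID number or with the cell division covariate, 656 with zeros kept, 581 with the suffix and 142 with the muscle covariate. It was 473, 504 and 496 without 4-month samples 1, 2 and 3, 2172 without 4-month sample 4 and 157 without 1-month sample 1. Treating values shared by 100 or more probes as not measured, also added after seeing the data, gave 1100. The number of samples, 4 per age, limits the precision.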
